A study of Mus musculus with 6 samples.

Results

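The genes described here are 40 mouse genes of protein folding and quality control in the endoplasmic reticulum (ER), measured by RNA sequencing in cells labelled as primary vascular smooth muscle cells. They were listed by name and role, with earlier results of these data known. The list holds ATF6 and XBP1 stress sensors and factors, folding enzymes and chaperones of the ER lumen, and factors of ER-associated degradation. All 40 were matched by Ensembl ID among the 56393 genes of the count table, and all 40 passed the filter on low counts. The cells were either knocked out for Nono (KO, 3 libraries) or wild type (WT, 3 libraries). The Nono protein binds RNA and DNA and is a component of paraspeckles, bodies in the nucleus. Both groups were kept in DMEM with 20% fetal bovine serum and antibiotics and were given no further treatment. How Nono was knocked out, whether the cells of a group are 1 clone, and whether replicates came from separate animals or cultures are not said in the labels. The p-values therefore measure only the spread between these libraries, which may be technical.

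Proteins that enter the ER are folded by chaperones of the Hsp70 and Hsp90 families, by the lectin chaperones calnexin and calreticulin, and by enzymes that form disulfide bonds and turn proline bonds. Proteins that fail to fold are passed back to the cytosol and degraded. When unfolded proteins build up, the sensors IRE1 (gene Ern1), ATF6 and PERK start the unfolded protein response, in which the factors ATF6 and spliced XBP1 raise the transcription of many of these genes. Cells that secrete collagen depend on these enzymes, since procollagen needs proline hydroxylation, disulfide bonds and prolyl isomerization before it leaves the ER. Splicing of Xbp1 and cleavage of ATF6 protein cannot be read from gene counts.

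ATF6 and XBP1 bind known promoter elements, and stretches of the promoters that hold one before the start are shown, because these are the letters that the known factors of the stress response bind. RefSeq promoters (GRCm38.p6, 250 bases before to 50 bases after the annotated start) were matched for 34 of the 40 genes, which leaves Atf6, Hyou1, Sil1, Manf, Fkbp10 and Derl1 unmatched. The ER stress response element (ERSE) was searched as CCAAT, any 9 bases and CCACG, its variant ERSE-II as ATTGG, any 1 base and CCACG, and the core of the unfolded protein response element (UPRE) as TGACGTG, each on both strands. ERSE-II was added after the first results were known. The stretches below are given 5′ to 3′ on the strand of the gene, with the ERSE or ERSE-II in capitals. A match on the opposite strand reads in reverse complement. For Hspa5 all bases before the start are printed, for Hsp90b1 the stretch that holds its pair of matches, and for the others the match with its flanks.
Hspa5 (chr2:34771840-34772089, plus strand): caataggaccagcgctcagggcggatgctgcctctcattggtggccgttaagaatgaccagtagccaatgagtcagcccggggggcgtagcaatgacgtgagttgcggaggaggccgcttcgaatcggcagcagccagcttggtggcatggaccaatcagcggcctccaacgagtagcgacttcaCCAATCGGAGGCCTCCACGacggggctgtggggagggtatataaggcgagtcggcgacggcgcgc
Herpud1 (chr8:94386367-94386397, plus strand): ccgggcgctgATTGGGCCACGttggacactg
Creld2 (chr15:88819510-88819548, plus strand): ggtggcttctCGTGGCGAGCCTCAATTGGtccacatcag
Syvn1 (chr19:6046522-6046560, plus strand): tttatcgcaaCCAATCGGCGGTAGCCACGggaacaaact
Hsp90b1 (chr10:86705523-86705666, minus strand): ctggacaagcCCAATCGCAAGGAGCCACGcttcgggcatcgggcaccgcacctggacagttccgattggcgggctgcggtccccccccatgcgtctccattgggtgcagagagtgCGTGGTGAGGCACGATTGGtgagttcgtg
Canx (chr11:50325790-50325828, minus strand): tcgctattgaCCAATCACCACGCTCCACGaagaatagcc
Calr (chr8:84847065-84847103, minus strand): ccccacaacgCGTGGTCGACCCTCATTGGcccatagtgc
Derl3 (chr10:75893232-75893270, plus strand): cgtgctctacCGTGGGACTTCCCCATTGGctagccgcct
Ero1lb (chr13:12565672-12565710, plus strand): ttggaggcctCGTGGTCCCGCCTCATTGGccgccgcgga
Dnajc3 (chr14:118937817-118937855, plus strand): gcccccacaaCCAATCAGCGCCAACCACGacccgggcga
Pdia6 (chr12:17266481-17266519, plus strand): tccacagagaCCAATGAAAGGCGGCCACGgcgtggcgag

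ERSE was found in the promoters of 10 of the 34 matched genes (29.4%), against 37 of 27025 genes (0.137%) in the whole RefSeq table. The list was chosen to include the ATF6 and XBP1 arms, whose factors bind such elements. The higher shares of ERSE and ERSE-II therefore follow in part from that choice. The 11 matches of these 10 genes were centred between 203 and 35 bases before the start, 6 on the strand of the gene and 5 on the opposite strand. Of the 10 genes, 7 were lower in KO (against 34.2% of all tested genes), 2 were higher (against 35.1%) and 1 did not pass the test. Among tested genes at a mean of 20 CPM or more, 43.9% were lower and 39.0% higher. The log2 fold changes of the 10 genes ran from -1.86 to 0.46 around a median of -0.31. Among them the differences of Calr, Canx and Dnajc3 were small, and Derl3 was near the limit of detection. Of the other 24 matched genes, 9 were lower, 14 were higher and 1 did not pass, with a median of 0.29. The difference between genes with and without ERSE was not tested. ERSE-II was found in Herpud1 and Dnajb11 (5.88% of the matched genes, against 0.0444% of all genes), both lower in KO. The match of Dnajb11 is centred 12 bases after the start and is not printed. The UPRE core was found in Hspa5 alone of the 34 (2.94%, against 2.22% of all genes), 154 bases before the start. A match describes these letters in this window and does not show binding.

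**Figure D1:**
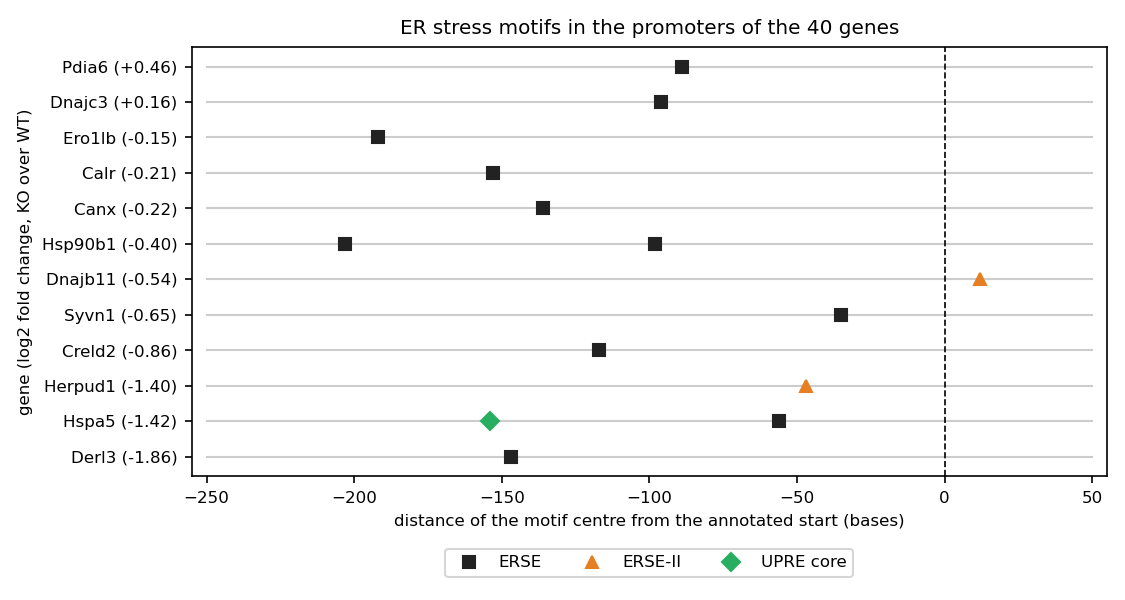
Position of ERSE, ERSE-II and UPRE core matches (centre of the match, in bases from the annotated start, dashed line) in the promoters of the genes that hold one. Genes run from the highest to the lowest log2 fold change of KO over WT, given in brackets; Pdia6 and Dnajc3 are the ones above 0.

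The knockout was visible in the target gene, and the groups differed in more than Nono. Nono was at 55.97, 54.8 and 51.1 CPM (counts scaled to library size with TMM factors) in the KO libraries and at 523, 502 and 519 CPM in the WT libraries, 9.54-fold lower in KO. Library totals were 57295800 to 61670083 counts in KO and 56529170 to 60864603 counts in WT. The threshold, an adjusted p of 0.05, was passed by 12980 genes of 18732, or 69.3% (edgeR quasi-likelihood test, Benjamini-Hochberg over all tested genes), 35.1% higher and 34.2% lower in KO. The 4 Y-linked genes summed to 149.9 to 163.3 CPM in KO and 0 to 0.0795 CPM in WT. Of 10 fibroblast markers, 9 were higher and 1 lower, with sums of 17640 to 19050 CPM in KO and 1633 to 1833 CPM in WT, where Lum and Thy1 had 0 counts. Of 10 smooth muscle markers, 6 were higher and 2 lower, with sums of 586 to 827 CPM in KO and 418 to 617 CPM in WT. Most of these sums is Cald1 (479.6 CPM in KO and 452 CPM in WT, not past the threshold). Acta2 was 9.82-fold and Tagln 17.5-fold higher in KO, Myocd had 0 counts in KO, and Myh11, the smooth muscle myosin, lay at 0.219 CPM in KO and 0.467 CPM in WT and did not pass. Endothelial markers (5 of 10 tested, 1 higher and 4 lower) summed to 9.35 to 10.4 CPM in KO and 38.4 to 44.6 CPM in WT. Flt1 made up most of it (7.985 CPM in KO and 38.6 CPM in WT), with Tie1 and Cldn5 at 0 counts throughout. Macrophage and leukocyte markers (5 of 10 tested, 3 higher and 1 lower) summed to 72.9 to 88.1 CPM in KO and 21.4 to 24.0 CPM in WT, most of it Cd14 (74.5 CPM in KO and 12.4 CPM in WT). Lyz2 was lower (0.213 CPM in KO and 8.54 CPM in WT), with Ptprc, Adgre1 and Itgam at 0 counts. Epithelial and mesothelial markers (5 of 10 tested, 2 higher and 2 lower) summed to 9.97 to 13.98 CPM in KO and 77.0 to 85.3 CPM in WT. Most of it was Krt19 (8.39 CPM in KO and 59.3 CPM in WT). Msln was at 0.22 CPM in KO and 20.1 CPM in WT, and both genes were lower in KO. Cdh1 and Wt1 were higher, with Epcam and Krt18 at 0 counts. Y-linked expression separated the groups completely, so the sex or origin of the cells cannot be told apart from the knockout in this design. The part of the marker differences in the results that follow was not tested. In bulk samples, fewer cells of a type and less RNA per cell cannot be told apart.

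The ER folding genes moved in both directions, with most of the sensors, secreted proteins and lectin chaperones lower in KO and most of the disulfide and prolyl isomerases higher. Of the 40 genes, 18 (against 35.1% of all tested genes) were higher and 20 (against 34.2%) were lower in KO, and Ero1lb and Sec61b did not pass. These genes are well expressed, 38 of them at a mean of 20 CPM or more. Among the 8391 tested genes at that level, a background chosen after the data had been seen, 39.0% were higher and 43.9% lower, or 82.9% in either direction. The differences were mostly small: 4 genes were at least 2-fold higher (21.6% of all tested genes) and 7 at least 2-fold lower (19.8%), beside 41.4% of all tested genes in either direction. The CPM of the groups did not overlap in 37 of the 40 genes, against 75.5% of all tested genes. The median log2 fold change of the 40 genes was -0.16, beside 0.03 over all tested genes. Scaling by total counts moved the median of all genes to -0.10 and that of the 40 to -0.29, a shift of every gene by about the same amount. With that scaling 14 of the 40 were higher and 20 lower. The FPKM as deposited gave 13 higher and 20 lower.

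**Figure D2:**
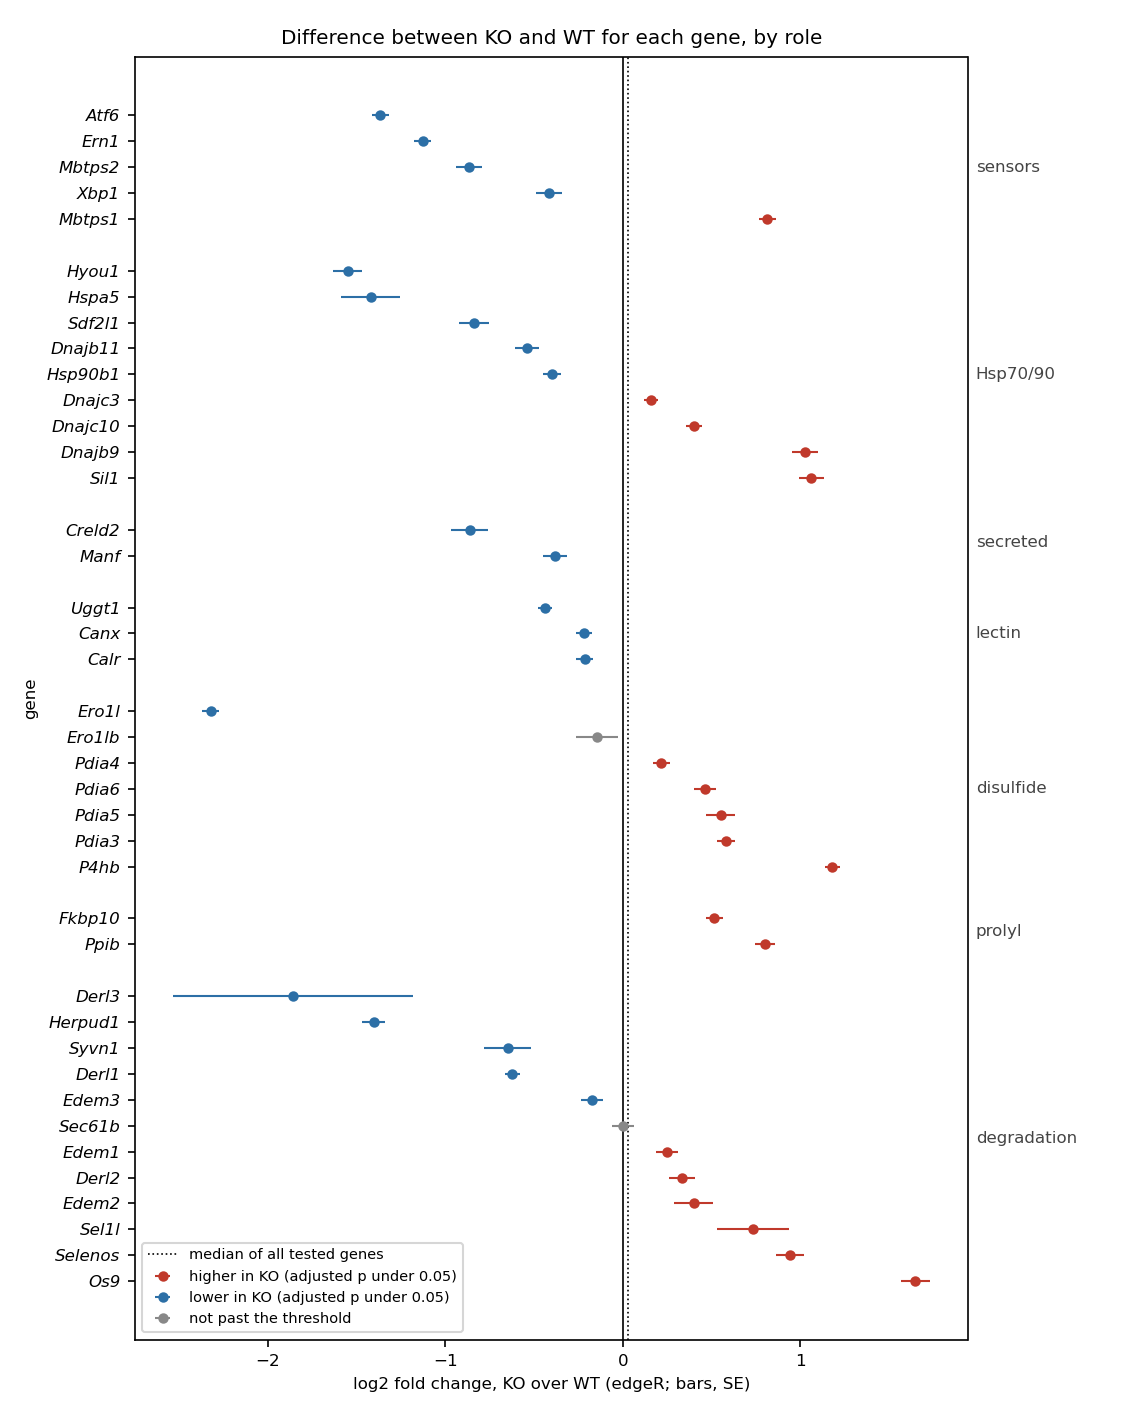
Log2 fold change of KO over WT for the 40 genes, grouped by role and ordered within each role, with edgeR standard errors as bars. The dotted line is the median of all tested genes (0.03). Sensors, lectin chaperones and secreted stress proteins lie mostly left of 0, and disulfide isomerases and prolyl isomerases mostly right of it; Dnajc3, Pdia4, Edem1, Edem2 and Derl2 lose their call from the FPKM, and Sec61b turns sign with total counts and from the FPKM.

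Levels can be compared between genes only per length, as deposited FPKM. On that scale the order at the top differed between the groups. P4hb, a disulfide isomerase and the beta subunit of prolyl 4-hydroxylase, was the highest of the 40 in KO (310 ± 6.64 FPKM) and had rank 5 in WT (149 ± 9.14 FPKM; SD, n = 3). Hspa5, the ER Hsp70 chaperone also called BiP, had rank 7 in KO (106.7 ± 14.9 FPKM) and rank 2 in WT (337 ± 21.4 FPKM). The ratio of P4hb to Hspa5 FPKM was 2.85, 2.63 and 3.34 in the KO libraries and 0.424, 0.446 and 0.461 in the WT libraries. Every KO library thus held more P4hb than Hspa5 per length, and every WT library less. Calr, calreticulin, had rank 2 in KO (277 ± 17.9 FPKM) and rank 1 in WT (350.1 ± 9.35 FPKM), where its level and that of Hspa5 lay within their spread of each other. Ero1l had rank 24 in KO (25.4 ± 1.03 FPKM) and rank 6 in WT (133 ± 7.55 FPKM). The lowest of the 40 was Derl3, at 0.165 ± 0.161 FPKM in KO and 0.928 ± 0.528 FPKM in WT.

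**Figure D3:**
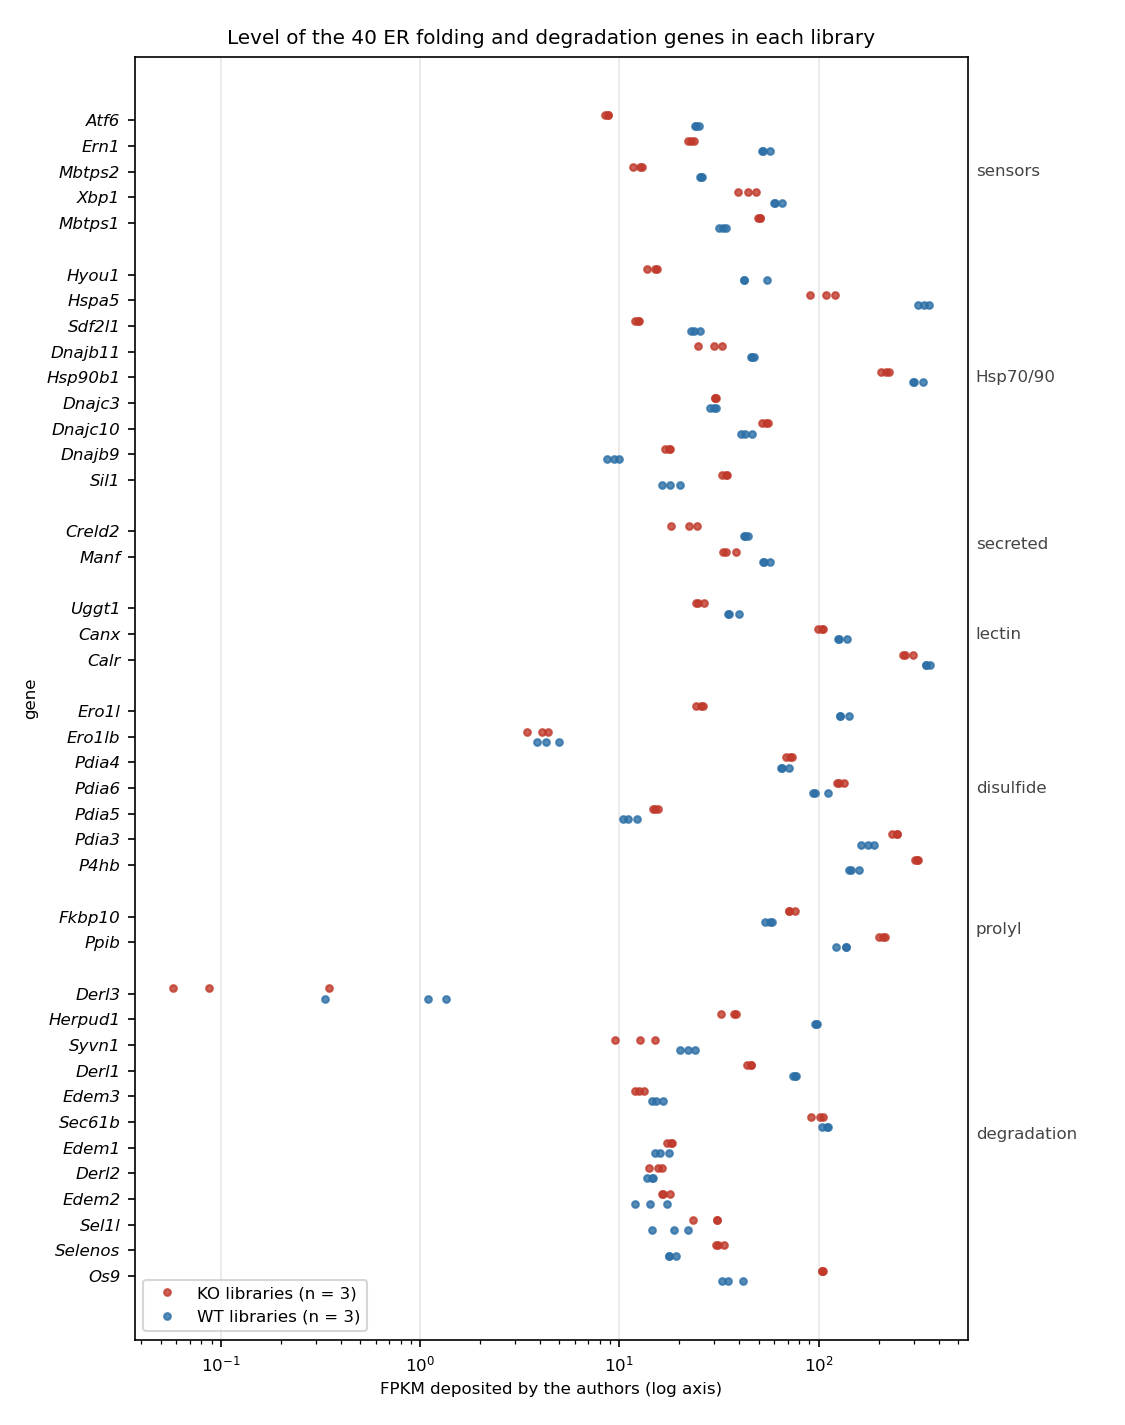
Deposited FPKM of the 40 genes in each of the 3 KO and 3 WT libraries, on a log axis, by role. In 32 of the 40 genes the FPKM of the groups did not overlap, against 74.1% of all tested genes. Derl3 lies far below the other genes.

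Of the 5 genes that sense or relay ER stress, 4 were lower in KO and 1 was higher. Counts by role, here and below, stand beside 35.1% higher and 34.2% lower over all tested genes. Among genes at a mean of 20 CPM or more these shares were 39.0% and 43.9%. Atf6, whose protein is cut in the Golgi to release a transcription factor, was at 73.2, 75.8 and 76.3 CPM in KO and at 199.8, 190.3 and 190.7 CPM in WT. The groups lay far apart, with a log2 fold change of -1.37 ± 0.046 (SE, edgeR adjusted p = 5.13e-08). Ern1, the kinase and RNase that splices Xbp1, was at 183, 177 and 169 CPM in KO and at 376, 402 and 378 CPM in WT (log2 fold change -1.13 ± 0.048 SE, edgeR adjusted p = 1.69e-07). Each KO library held less than each WT library. The site-2 protease Mbtps2, which makes the second cut in ATF6, was at 62.7, 57.6 and 59.7 CPM in KO and at 114, 99.0 and 115 CPM in WT (log2 fold change -0.87 ± 0.073 SE, edgeR adjusted p = 1.04e-05). Its partner Mbtps1, the site-1 protease, went the other way, with 324, 311 and 313 CPM in KO and 175, 190.4 and 174 CPM in WT (log2 fold change 0.81 ± 0.049 SE, edgeR adjusted p = 1.25e-06). The genes for the successive cuts in ATF6 thus differed in opposite directions. Mbtps2 lies on the X chromosome, and Y-linked expression separated the groups. Whether the difference of Mbtps2 goes with the sex of the cells was not tested. Xbp1 was lower at 90.6 ± 8.83 CPM in KO and 120.7 ± 2.52 CPM in WT (SD, n = 3 each), a 1.33-fold difference. Exons of Mbtps2 overlap those of Yy2 on the same strand, which had 6.18% as many counts.

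Among 9 Hsp70 and Hsp90 chaperones and cofactors, 5 were lower and 4 were higher in KO. Hyou1, a large Hsp70-related nucleotide exchange factor, was at 62.1, 63.7 and 62.3 CPM in KO and at 170.0, 208 and 172 CPM in WT (log2 fold change -1.55 ± 0.082 SE, edgeR adjusted p = 6.17e-07). The KO values were close to each other and all below the WT values. Hspa5 was at 334, 367 and 236 CPM in KO and at 821.5, 886 and 798 CPM in WT (log2 fold change -1.42 ± 0.17 SE, edgeR adjusted p = 0.000379). KO replicate 3 was the lowest, and without it the log2 fold change was -1.25 (edgeR adjusted p = 3.6e-06). The other lower genes were Sdf2l1, which stabilises complexes of BiP (1.79-fold), the J protein Dnajb11 (1.45-fold) and the ER Hsp90 gene Hsp90b1 (1.32-fold). Sil1, the other nucleotide exchange factor of BiP, was at 69.9, 67.0 and 65.1 CPM in KO and at 29.7, 34.15 and 32.9 CPM in WT (log2 fold change 1.06 ± 0.072 SE, edgeR adjusted p = 2.67e-06). Hyou1 and Sil1, which serve the same step of the BiP cycle, thus differed in opposite directions. Dnajb9, a J protein that binds IRE1 and misfolded clients, was at 52.55, 51.8 and 49.5 CPM in KO and at 23.7, 24.9 and 26.9 CPM in WT (log2 fold change 1.03 ± 0.073 SE, edgeR adjusted p = 3.63e-06). Dnajc10, a disulfide reductase with a J domain, was 1.32-fold higher. Dnajc3, a J protein of the ER lumen, was at 186 ± 0.385 CPM in KO and 167 ± 3.67 CPM in WT, and its call was lost with scaling by total counts (edgeR adjusted p = 0.558). The summed level of the 9 genes was 515 ± 22.2 FPKM in KO and 864 ± 49.4 FPKM in WT (ratio 0.597, and 0.688 from CPM). An exact two-sided permutation test gave p = 0.1, the smallest that 3 against 3 libraries allow. Most of the summed FPKM was Hspa5 (106.7 FPKM in KO and 337 FPKM in WT) and Hsp90b1 (216 FPKM in KO and 310 FPKM in WT).

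Both secreted stress proteins and all 3 genes of the lectin cycle were lower in KO. Creld2, a stress-induced protein with disulfide isomerase-like motifs, was at 29.8, 39.9 and 36.6 CPM in KO and at 63.6, 65.2 and 64.4 CPM in WT (log2 fold change -0.86 ± 0.10 SE, edgeR adjusted p = 0.0001). Manf, which binds BiP and is secreted under stress, was at 70.65, 80.4 and 73.9 CPM in KO and at 96.5, 103.9 and 92.6 CPM in WT (log2 fold change -0.38 ± 0.069 SE, edgeR adjusted p = 0.00119). The groups did not overlap in either gene. Exons of Manf overlap those of Rbm15b and Dcaf1, which had 83.8% and 62.3% as many counts, and how reads were shared out between such genes is not given in the sources used here. Uggt1, the glucosyltransferase that returns unfolded glycoproteins to the cycle, was at 177, 179 and 177 CPM in KO and at 237, 238 and 246 CPM in WT (log2 fold change -0.44 ± 0.039 SE, edgeR adjusted p = 1.59e-05). Canx, calnexin, was at 442, 462 and 465 CPM in KO and at 516, 558 and 521 CPM in WT (log2 fold change -0.22 ± 0.044 SE, edgeR adjusted p = 0.002225). Calr was at 684, 764 and 695 CPM in KO and at 824, 841 and 821 CPM in WT (log2 fold change -0.21 ± 0.048 SE, edgeR adjusted p = 0.00392). These were small differences that lay outside the spread of the libraries. The summed FPKM ratios of KO to WT were 0.586 for the secreted proteins and 0.784 for the lectin cycle (exact permutation p = 0.1 each).

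Of 7 disulfide isomerases and oxidases, 5 isomerases were higher in KO and the oxidase Ero1l was lower. Ero1l, the oxidase that passes electrons from the isomerases to oxygen, had the largest fold change of the 40 genes, with 124.9, 127.0 and 119.4 CPM in KO and 611, 644 and 603 CPM in WT. That is a 5.00-fold lower level (log2 fold change -2.32 ± 0.046 SE, edgeR adjusted p = 4.235e-09). Its paralog Ero1lb was at 17.4 ± 1.61 CPM in KO and 19.3 ± 2.20 CPM in WT (SD, n = 3 each) and did not pass (log2 fold change -0.15 ± 0.12 SE, edgeR adjusted p = 0.295). P4hb was at 1061, 1069 and 1030.0 CPM in KO and at 448, 489.6 and 457 CPM in WT, 2.27-fold higher (log2 fold change 1.18 ± 0.044 SE, edgeR adjusted p = 8.26e-08). Pdia3, which works with calnexin and calreticulin on glycoproteins, was at 775, 815 and 803 CPM in KO and at 497, 564 and 538 CPM in WT (log2 fold change 0.58 ± 0.052 SE, edgeR adjusted p = 1.53e-05). It was higher while its partners Calr and Canx were lower. Pdia5 was at 31.8, 32.9 and 32.0 CPM in KO and at 20.4, 23.6 and 22.1 CPM in WT (log2 fold change 0.55 ± 0.081 SE, edgeR adjusted p = 0.000352). Pdia6, an isomerase that also binds IRE1, was 1.38-fold higher. Pdia4 was 1.16-fold higher, and this call was lost with scaling by total counts (edgeR adjusted p = 0.152) and from the FPKM. The summed level of the 7 genes was 797 ± 18.5 FPKM in KO and 641.5 ± 42.7 FPKM in WT (ratio 1.24, exact permutation p = 0.1).

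Both prolyl isomerases were higher in KO. Ppib, cyclophilin B, which acts on procollagen as part of the prolyl 3-hydroxylation complex, was at 225, 232 and 239.7 CPM in KO and at 124.9, 136.5 and 139 CPM in WT (log2 fold change 0.80 ± 0.054 SE, edgeR adjusted p = 2.6e-06). Fkbp10, a chaperone of procollagen, was at 199, 201 and 213.5 CPM in KO and at 145, 146 and 138 CPM in WT (log2 fold change 0.51 ± 0.048 SE, edgeR adjusted p = 2.08e-05). The groups did not overlap in either gene. Exons of Fkbp10 overlap those of Nt5c3b on the opposite strand, which had 29.5% as many counts, and those of Ppib overlap Snx22, at 9.28%. The fibroblast markers, Col1a1, Col1a2 and Col3a1 among them, were higher in the same libraries (9 of 10, sums of 17640 to 19050 CPM in KO and 1633 to 1833 CPM in WT), and their part in these differences was not tested.

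**Figure D4:**
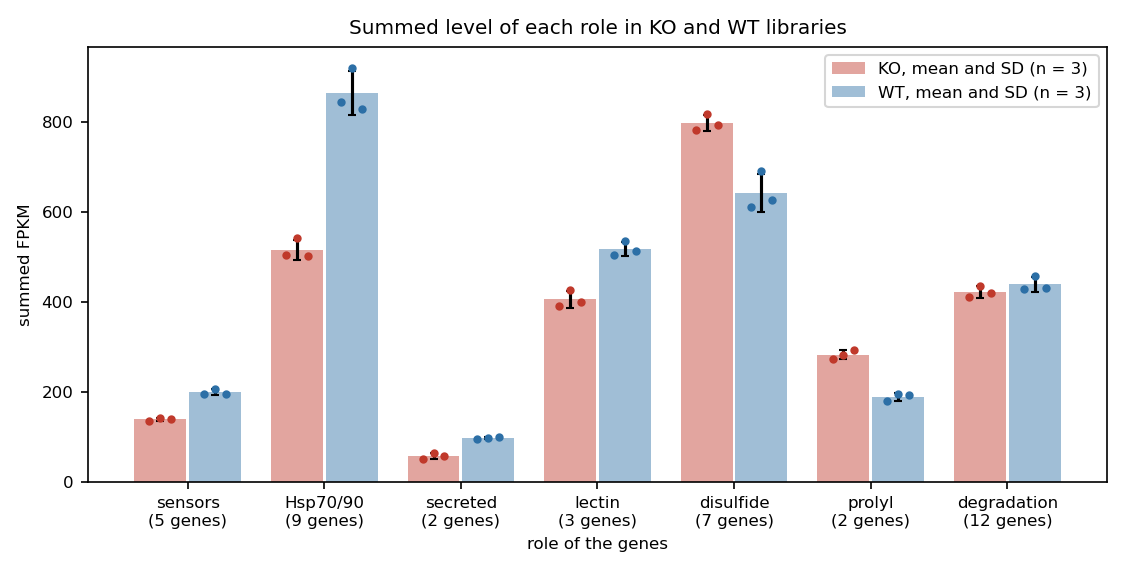
Summed deposited FPKM of the genes of each role, with bars for the mean and SD of 3 libraries and points for single libraries, KO left of WT. Points of KO lie below those of WT for the sensors, the Hsp70 and Hsp90 group, the secreted proteins and the lectin cycle, and above them for the disulfide and prolyl enzymes; for the degradation factors they overlap.

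Degradation factors were split, with 6 of 12 higher and 5 lower in KO. From the deposited FPKM 3 were higher and 5 lower, and without KO replicate 2 or WT replicate 1 the count of lower genes was 3. Os9, a lectin that hands misfolded glycoproteins to the ubiquitin ligase, was at 316, 315 and 318 CPM in KO and at 97.6, 114 and 91.0 CPM in WT, 3.13-fold higher (log2 fold change 1.65 ± 0.080 SE, edgeR adjusted p = 3.81e-07). It had the largest increase of the 40 genes. Selenos, a selenoprotein of the retrotranslocation complex, was at 40.5, 43.9 and 41.7 CPM in KO and at 21.5, 23.4 and 20.7 CPM in WT (log2 fold change 0.94 ± 0.078 SE, edgeR adjusted p = 9.87e-06). Herpud1, a scaffold of the ligase complex, was at 68.4, 75.8 and 80.3 CPM in KO and at 199.8, 192 and 202 CPM in WT (log2 fold change -1.40 ± 0.065 SE, edgeR adjusted p = 2.84e-07). Herpud1 and Os9, which act at the same ligase complex, thus differed in opposite directions. Sel1l, the adaptor of that ligase, was at 193, 189.6 and 142 CPM in KO and at 111, 125 and 79.2 CPM in WT (log2 fold change 0.73 ± 0.20 SE, edgeR adjusted p = 0.0178). Its spread was wide, with replicate 3 the lowest in both groups, and the call was lost without KO replicate 1 (edgeR adjusted p = 0.0571) or KO replicate 2 (0.0559). With the replicate number as a block the call of Sel1l was kept (edgeR adjusted p = 0.000251). The ligase Syvn1 itself was 1.57-fold lower, at 45.1 ± 8.22 CPM in KO and 70.75 ± 5.09 CPM in WT. Exons of Syvn1 overlap those of Mrpl49 on the opposite strand, which had 147% as many counts.

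The mannosidase-like proteins and derlins did not share a direction within their families. Edem1 (1.19-fold) and Edem2 (1.32-fold), which direct glycoproteins to degradation, were higher in KO, and both calls were lost with scaling by total counts (edgeR adjusted p = 0.14 and 0.0729) and from the FPKM (limma adjusted p = 0.138 and 0.14). Edem3 was 1.13-fold lower (edgeR adjusted p = 0.0307), a call lost with the replicate number as a block (0.0697) and without KO replicate 1, KO replicate 2, WT replicate 1 or WT replicate 2 (0.0755 to 0.0959). Derl1, a derlin of the retrotranslocation channel, was 1.54-fold lower. Derl2 was 1.26-fold higher, a call lost from the FPKM (limma adjusted p = 0.301), and its exons overlap those of Mis12 on the opposite strand, which had 92.6% as many counts. Derl3 was near the limit of detection, with 20, 5 and 9 counts in KO and 55, 17 and 62 counts in WT. Its groups overlapped, and its call (log2 fold change -1.86 ± 0.68 SE, edgeR adjusted p = 0.0375) was lost with limma-voom (limma adjusted p = 0.0528) and without KO replicate 2 or 3 or WT replicate 1 or 3 (0.101 to 0.127). Sec61b, a subunit of the translocon, was at 66.8 ± 4.30 CPM in KO and 66.75 ± 1.92 CPM in WT (SD, n = 3 each; edgeR adjusted p = 0.987). The sign of its difference turned with the scaling.

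Related ER genes, listed by role, are given next. Their counts, here and in the lists below, stand beside 35.1% higher and 34.2% lower over all tested genes. Among genes at a mean of 20 CPM or more these shares were 39.0% and 43.9%. Of 8 genes listed as the PERK arm, 7 were lower and 1 was higher, with a median log2 fold change of -2.0. The list is named by role, and the activity of the PERK protein cannot be read from gene counts. Chac1, a glutathione-degrading enzyme, was at 5.19 CPM in KO and 600.4 CPM in WT, Trib3, a pseudokinase induced by ATF4, at 16.9 CPM in KO and 397 CPM in WT, and Ppp1r15a, a regulator of the eIF2alpha phosphatase, at 28.4 ± 2.33 CPM in KO and 172 ± 60.8 CPM in WT. The gene for the sensor itself, Eif2ak3, named here although outside the naming rule, was the 1 higher (44.9 ± 1.67 CPM in KO and 21.4 ± 1.05 CPM in WT). All 6 ATF6-related bZIP genes were tested, and 4 were higher and 0 lower. Creb3l1, a factor cut by the same proteases as ATF6 and known for collagen gene regulation in bone, was at 63.05 ± 3.49 CPM in KO and 25.0 ± 2.86 CPM in WT. Creb3l2 was 2.07-fold and Creb3 1.40-fold higher.

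Genes that act on procollagen were mostly higher. Of 14 other ER prolyl isomerases and procollagen chaperones, 10 were higher and 3 lower, with a median log2 fold change of 1.10. P3h3, of the prolyl 3-hydroxylase family, was at 109 ± 10.7 CPM in KO and 10.6 ± 2.22 CPM in WT. P4ha3, a catalytic subunit that pairs with P4hb, was at 54.7 ± 2.06 CPM in KO and 11.1 ± 2.20 CPM in WT. P3h2 was the exception in its family, at 1.31 ± 0.886 CPM in KO and 20.5 ± 1.12 CPM in WT. Serpinh1, the collagen chaperone HSP47, did not pass (449 ± 130.0 CPM in KO and 594 ± 165 CPM in WT, edgeR adjusted p = 0.29). Of the 10 fibroblast markers, 9 were higher in KO and Fbln1 was lower, and their part in the differences of this list was not tested.

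The enzymes that add and trim glycans were mostly lower. The carriers to the Golgi were more often higher, by a margin that depended on the processing, and the translocon genes were mixed. Of 15 genes of the oligosaccharyltransferase and of glycan trimming, 10 were lower and 3 higher (median log2 fold change -0.33). Rpn1, a core subunit, was at 168 ± 11.1 CPM in KO and 357 ± 16.0 CPM in WT, and Ganab, the glucosidase that prepares glycoproteins for calnexin, at 295 ± 7.07 CPM in KO and 594 ± 10.8 CPM in WT. Tusc3 was 2.22-fold higher. Of 18 genes of ER to Golgi transport, 10 were higher and 2 lower (median 0.27), among them the coat gene Sec23a (142 ± 3.90 CPM in KO and 44.8 ± 2.24 CPM in WT), the retrieval receptor Kdelr1 (2.57-fold higher) and Sec24d (1.78-fold higher). For these carriers total counts gave 9 higher and 5 lower, the FPKM 8 higher and 5 lower, and the fit without WT replicate 1 gave 9 higher and 4 lower. Of 18 genes of the translocon and signal peptidase, 8 were higher and 4 lower (median 0.09), and this split turned round with total counts (6 higher and 8 lower) and from the FPKM (4 higher and 8 lower). Ssr2, of the translocon-associated complex, was at 62.95 ± 14.4 CPM in KO and 187 ± 4.40 CPM in WT, while Tram2 was 2.51-fold and Ssr4 2.09-fold higher.

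Of 12 tested thioredoxin-fold ER proteins outside the 40, 8 were lower and 3 higher (median -0.31), with Pdia2 removed by the filter. Qsox1, a sulfhydryl oxidase that forms disulfides without ERO1, was at 303 ± 8.53 CPM in KO and 57.1 ± 5.98 CPM in WT. Its paralog Qsox2 was at 20.1 ± 1.17 CPM in KO and 49.98 ± 4.48 CPM in WT. The membrane protein Tmx2 was 3.12-fold lower. Of 21 cytosolic and membrane degradation partners, 9 were higher and 10 lower (median -0.09). Erlin1, which targets the inositol trisphosphate receptor for degradation, was at 29.5 ± 0.988 CPM in KO and 423.5 ± 10.4 CPM in WT, and Erlec1, a lectin of the same step as Os9, at a mean of 109 CPM in KO, 3.64-fold higher than in WT. Ube2g2, a ubiquitin-conjugating enzyme, was at 40.95 ± 25.2 CPM in KO and 207 ± 6.64 CPM in WT. Of 8 ER-phagy receptors, 4 were higher and 3 lower (median 0.20), with Ccpg1 at 36.5 ± 2.20 CPM in KO and 6.64 ± 2.01 CPM in WT, Calcoco1 3.62-fold higher and Retreg1 at 19.7 ± 0.994 CPM in KO and 86.1 ± 3.85 CPM in WT. The calls of these lists are described by their counts and were not tested against each other or against other genes.

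**Figure D5:**
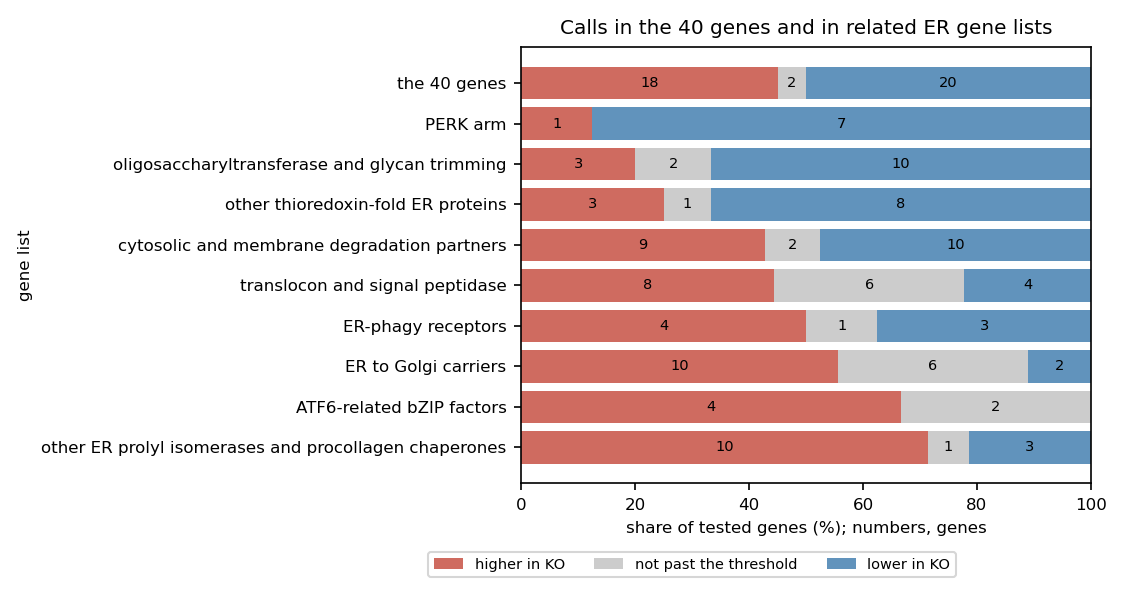
Share of tested genes that were higher, not past the threshold or lower in KO (adjusted p under 0.05, edgeR), for the 40 genes and for each related ER list, ordered by median log2 fold change; numbers in the bars count genes. The list named PERK arm has 7 of 8 genes lower. The list of other ER prolyl isomerases and procollagen chaperones has 10 of 14 higher. Of all tested genes, 35.1% were higher and 34.2% lower.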

How the data were processed

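RNA sequencing of 3 KO and 3 WT libraries was used, with groups and replicate numbers from the sample titles. The submitters' processing notes name build GRCm39 and the tools HISAT2, SAMtools 1.3.1, CASAVA 1.8 and edgeR. Counting tool, strandedness and gene annotation: not given in the sources used here. Reads of overlapping genes may therefore not be separable. For each Ensembl gene and library the authors deposited a raw read count and an FPKM value, per the file headers. Symbols, chromosomes and exon overlaps came from GENCODE M21 (GRCm38) and promoters from RefSeq (GRCm38.p6), whose coordinates are not those of the files. Counts were filtered with filterByExpr, scaled by TMM and fitted in R 4.3.3 with edgeR 4.0.16 (robust quasi-likelihood, KO over WT, no covariates), with Benjamini-Hochberg adjustment over 18732 genes at 0.05. The test was run on simulated data in which only a small share of genes was changed. Most genes differ here, so that run does not check the scaling of these data. Alternatives used DESeq2 1.42.0, limma 3.58.1 (voom, and log2 of the deposited FPKM plus a pseudocount of 0.1 or 1), total-count scaling, other filters and thresholds, a replicate block and each library left out. No replicate pair was a repeat deposit: chi-square over genes divided by its degrees of freedom was 22.6 to 34.8, far above sampling noise. The 40 genes and the lists were chosen with earlier results of these data known. In each role, up to 4 passing genes with the largest fold change are given by library, and in each related list up to 3 at 5 CPM or more; Eif2ak3, Serpinh1 and Pdia2, and the per-library values of Sel1l, were chosen after their values were seen. Of 2 IDs named Ddit3, the one spanning the other was used. Protein sequences were not used here. The background of genes at 20 CPM or more and ERSE-II were added after the data had been seen.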

Additional observations from a re-analysis of the deposited data

How the results depend on the processing

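Counts of the 40 genes past the threshold were 13 to 18 higher and 18 to 20 lower in every alternative except a minimum of 1.5-fold, which left 8 higher and 12 lower; it also moved 18 counts of single roles and related lists by over 1.5 times. Leaving out 1 library gave 17 to 18 higher and 18 to 19 lower. Over all tested genes, same-numbered KO and WT libraries did not deviate together (correlations of -0.0237, 0.018 and -0.00904), though single genes such as Sel1l may differ. With the replicate number as a block, 18 of the 40 were higher and 19 lower, Edem3 being lost, and the median log2 fold change was -0.159. That median was -0.291 with scaling by total counts, -0.212 to -0.0966 in the other alternatives. The ratio of summed CPM of the 40 genes, KO over WT, was 0.929 (exact permutation p = 0.1), 0.849 with total counts, 0.888 from FPKM and 0.916 to 0.95 with 1 library left out. Of 559 values of single genes over the 14 refits, with the stricter thresholds left out, 523 kept direction and call, 26 lost the call and 10 turned sign. All 10 were Sec61b, at -0.000985 (DESeq2), -0.128 (total counts), -0.0126 (no filter), -0.00107 (voom), -0.125 and -0.124 (FPKM with a pseudocount of 0.1 and 1), -0.000265 (replicate block), and within a range of -0.0322 to 0.0521 with 1 library left out; the cause was not tested. With 3 libraries a group, an exact permutation test cannot go below p = 0.1.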

Other observations

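Outside the 40 genes, 27 other genes of the RefSeq promoter table held an ERSE. Of these, 11 were tested, and 7 were lower in KO (against 34.2% of all tested genes), 3 were higher (against 35.1%) and 1 did not pass the edgeR test. Of the 7 lower genes, 3 were Xlr3a, Xlr3b and Xlr3c, near-identical copies that all had 0 CPM in KO and between which reads may not be separable.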
